A study of Rattus norvegicus with 17 samples.

Results

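Synthesis of cholesterol and of fatty acids was described here through 33 genes, taken as a fixed list of the enzymes of both pathways, their regulators and 1 sterol carrier, in rat fetal gubernaculum cultured with or without insulin-like 3 (Insl3). Probe sets that the platform annotation assigns to only 1 of these genes were kept. Of the 33 genes, 32 had such a probe set, with 52 probe sets in all, among 14218 genes and 31099 probe sets on the array, and no signal of Hmgcs1 was analysed here. The 32 comprised 17 enzymes of sterol synthesis, 9 enzymes of fatty acid synthesis and desaturation, 5 regulators and the carrier Stard4. The gubernaculum is the cord and bulb that guide the fetal testis on its way down, and Insl3 is a peptide hormone of the fetal testis that acts on it. Gubernacula of Long Evans male fetuses were taken on gestational day 17, and each replicate pooled 2 bulbs. All groups were held for 24 h without the hormone and then for a further 24 h in control medium, or in medium with 10 nM or 100 nM Insl3. The medium of every group, controls included, contained an insulin, transferrin and selenium supplement and charcoal-stripped serum. RNA was labelled from 150 ng per replicate and hybridised to Affymetrix arrays, 6 of control, 3 of 10 nM and 6 of 100 nM cultures. A further 2 arrays of 10 nM cultures had been set aside by the submitters, and they entered no test except 1 alternative fit. The labels call the replicates biological without naming litters, so p-values cover the spread between these pooled cultures.

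Cholesterol is built from acetyl-CoA through mevalonate, farnesyl diphosphate, squalene and lanosterol, and a series of demethylations, reductions and an isomerisation turns lanosterol into cholesterol. Fatty acids are built from the same acetyl-CoA by carboxylation, elongation and desaturation. The SREBP transcription factors, encoded by Srebf1 and Srebf2, act on genes of both pathways: Scap escorts them from the endoplasmic reticulum to the Golgi for cleavage when sterols are low, and Insig1 and Insig2 hold Scap back when sterols are plentiful. Insulin is a known inducer of Srebf1 in liver.

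The tissue label was checked against marker genes. All 5 mesenchymal markers measured were bright, with a mean log2 signal per array of 14.13 to 14.33 in 100 nM and 14.12 to 14.31 in control cultures, and none was called at either dose. Skeletal muscle markers were also bright (13.00 to 13.57 in 100 nM and 13.17 to 13.57 in control cultures), and 1 of the 6, Myod1, fell at 100 nM. All 6 markers of Leydig cells, a steroid-making cell type of the testis, lay at the floor of the scale, at a log2 signal of 2.11. Of 7 adipocyte markers, Adipoq, Plin1, Pparg, Cidec and Lep lay at the same floor, Fabp4 fell at 100 nM by 1.28 on the log2 scale (limma adjusted p = 0.00998) and Lpl was not called. In whole bulbs, fewer cells of a type and less RNA per cell cannot be told apart. All 32 genes were above the filter on low values on all 15 arrays, so none entered through 1 group alone.

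Insl3 was followed by higher signals of genes of both pathways. At 100 nM, 13 of the 32 genes rose and none fell against control, where 8.15% of all 10665 tested genes rose and 3.98% fell. At 10 nM, 17 of the 32 rose and none fell, against 5.54% and 3.13% of all tested genes. Every one of the 32 had a positive log2 difference at both doses, with a median of 0.36 at 100 nM and 0.50 at 10 nM, while the median over all tested genes was 0.02 at 100 nM and 0.06 at 10 nM. Sterol enzymes were called higher in 5 of 17 cases at 100 nM and 9 of 17 at 10 nM, with medians of 0.37 and 0.53. Fatty acid enzymes were called higher in 4 of 9 and 5 of 9 cases, with medians of 0.26 and 0.49, and regulators in 4 of 5 and 3 of 5, with medians of 0.33 and 0.49. Both doses were compared with the same 6 control arrays, so the 2 sets of values share those controls. Calls were made with limma at a Benjamini-Hochberg adjusted p under 0.05 over all tested probe sets.

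**Figure D1:**
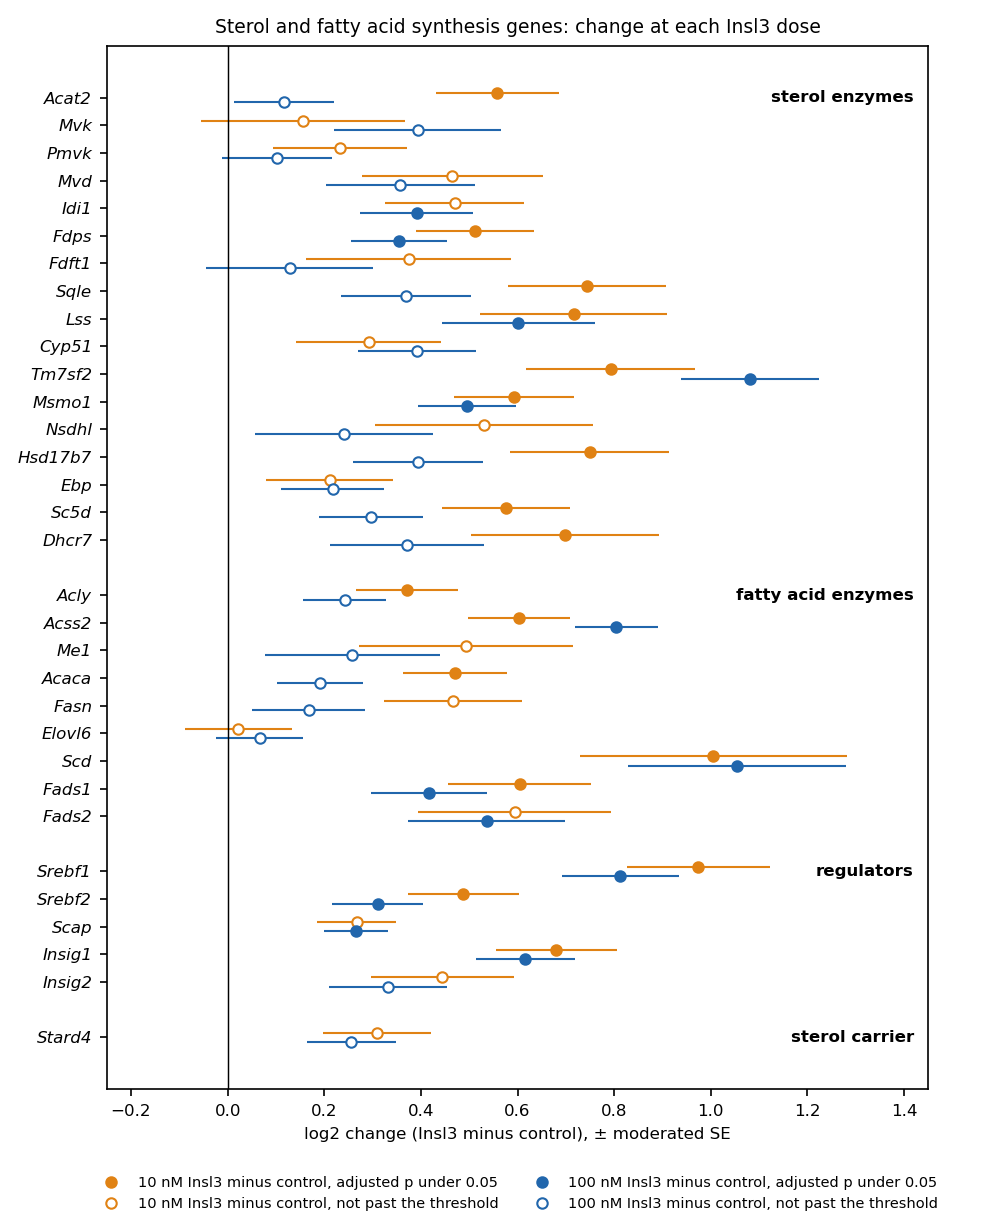
Log2 difference of each of the 32 genes from control (x axis) for 10 nM and 100 nM Insl3, with bars for ± SE. Filled points passed the test. All points lie right of 0, and Tm7sf2 and Scd reach 1.08 and 1.05 at 100 nM.

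The counts moved with single arrays, and each fell to 1 gene in a further fit. These fits were at 100 nM with a blood cell covariate and at 10 nM against control replicates 1, 2 and 6 alone. In them 2.96% and 4.13% of all tested probe sets were called, against 10.9% and 10.6% in the main fit. The 10 nM fit was added after seeing the data. Its 3 controls had the highest medians of the 32 genes relative to the control mean, 0.04, 0.23 and 0.21. The controls left out had -0.11, -0.17 and -0.11. At 100 nM the counts fell to 7, 6 and 7 without control replicate 3, 4 or 5. They fell to 8, 7, 8 and 7 without 100 nM replicate 1, 2, 5 or 6. With these single arrays omitted, 7.66% to 11.6% of all tested probe sets were called. The calls of Tm7sf2, Msmo1, Acss2, Scd, Srebf1 and Insig1 passed whichever of the 15 arrays was omitted. At 10 nM, 4 calls (Acss2, Srebf1, Insig1 and Srebf2) remained without 10 nM replicate 1, where 6.64% of all tested probe sets were called. Without 10 nM replicate 3, 5 remained (Acss2, Srebf1, Insig1, Tm7sf2 and Msmo1), where 5.42% were called. Each of the other 14 failed the threshold in at least 1 of the 15 fits, with an adjusted p of up to 0.169, for Dhcr7. The 6 genes that passed throughout at 100 nM were those whose 6 arrays all lay above all 6 control arrays, a pattern met by 4.51% of all tested genes. At 10 nM, 11 of the 32 genes had all 3 arrays above all controls, and 10 of these 11 were called; 10.2% of all tested genes had that pattern. Without adjustment, p was under 0.05 for 24 of the 32 genes at 100 nM and for 26 at 10 nM, against 27.6% and 21.7% of all tested genes.

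Because the SREBPs and their partners are known to act on many of these genes, the promoters were read for the motifs of such factors. The windows run from 250 bases before to 50 bases after the annotated start, in RefSeq's annotation of the rat build GRCr8. Windows were found for 26 of the 33 genes, Hmgcs1 among them, which held both an NF-Y and an Sp1 match. The motif CCAAT, bound by NF-Y, occurred on either strand in 19 of 26 genes, or 73.1%, against 37.5% of all 33469 promoter windows and 37.5% of those of tested genes. GGGCGG, bound by Sp1, occurred in 22 of 26, or 84.6%, against 33.1% of all windows and 61.8% of the windows of tested genes. The letters TCACNCCAC, 1 form of the sterol regulatory element bound by SREBP, were in none of the 26 windows, and they were in 1.12% of all windows and 1.05% of those of tested genes. The E-box CACGTG was found for Insig1, Sc5d and Scap, or 11.5% of the 26, near the 9.34% of windows of tested genes (6.42% of all windows). The cAMP response element TGACGTCA was found for none of the 26, against 3.00% of windows of tested genes and 1.83% of all windows. A match is only a description of the letters in the window, and the absence of a match says nothing beyond these letters and these 300 bases.

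**Figure D2:**
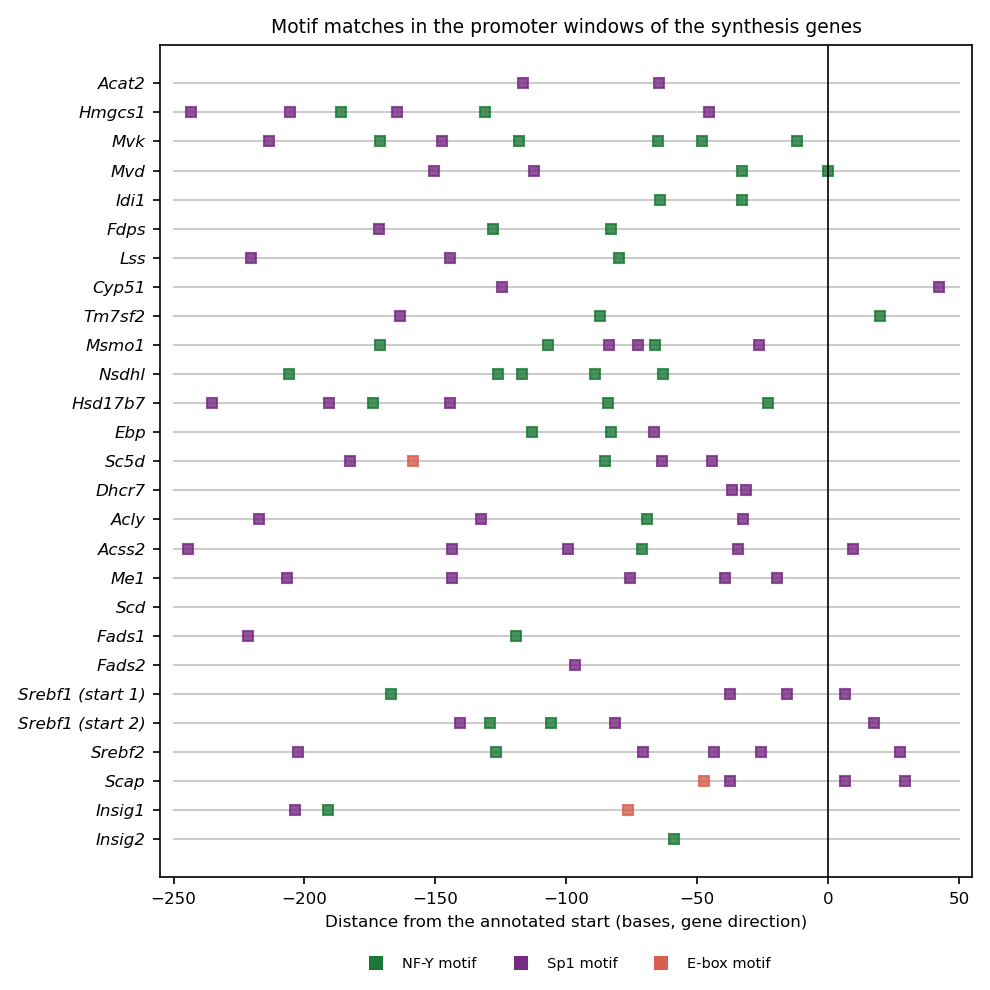
Positions of the NF-Y, Sp1 and other motifs (x axis, bases from the transcription start at 0) in the promoter windows of the synthesis genes, 1 row per window, either strand. NF-Y matches were found for 19 and Sp1 matches for 22 of 26 genes.

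The windows of the 5 genes with the lowest adjusted p at 100 nM are shown, since their 100 nM differences were the largest relative to the spread between arrays. They lie at chr3:164464453-164464752 on the plus strand (Acss2), chr1:212789492-212789791 on the minus strand (Tm7sf2), chr10:45529115-45529414 and chr10:45518961-45519260 on the minus strand (the 2 annotated starts of Srebf1), chr4:8057720-8058019 on the minus strand (Insig1) and chr16:29746863-29747162 on the plus strand (Msmo1), all in GRCr8. Each is written 5′ to 3′ on the gene's strand, with matches to CCAAT or GGGCGG on either strand in capitals. Acss2 held 5 matches to the Sp1 letters and 1 to the NF-Y letters, and Msmo1 held 3 of each.
Acss2: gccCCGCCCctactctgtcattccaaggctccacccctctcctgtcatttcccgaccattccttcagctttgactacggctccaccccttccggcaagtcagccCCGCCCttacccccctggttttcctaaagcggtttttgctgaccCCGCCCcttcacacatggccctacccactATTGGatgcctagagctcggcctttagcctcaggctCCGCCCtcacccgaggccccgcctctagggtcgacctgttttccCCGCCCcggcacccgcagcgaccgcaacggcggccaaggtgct
Tm7sf2: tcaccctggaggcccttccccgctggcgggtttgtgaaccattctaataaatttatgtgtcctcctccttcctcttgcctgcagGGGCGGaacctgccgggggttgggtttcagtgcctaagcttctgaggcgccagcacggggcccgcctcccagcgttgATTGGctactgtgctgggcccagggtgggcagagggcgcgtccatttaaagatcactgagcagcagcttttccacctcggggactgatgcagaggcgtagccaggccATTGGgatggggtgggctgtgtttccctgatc
Srebf1, window at chr10:45529115-45529414: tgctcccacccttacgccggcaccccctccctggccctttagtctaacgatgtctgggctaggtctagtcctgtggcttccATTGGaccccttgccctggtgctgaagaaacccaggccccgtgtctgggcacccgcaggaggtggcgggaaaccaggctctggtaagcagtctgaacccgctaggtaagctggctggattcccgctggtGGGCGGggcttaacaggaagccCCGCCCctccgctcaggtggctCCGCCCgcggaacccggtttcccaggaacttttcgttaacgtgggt
Srebf1, window at chr10:45518961-45519260: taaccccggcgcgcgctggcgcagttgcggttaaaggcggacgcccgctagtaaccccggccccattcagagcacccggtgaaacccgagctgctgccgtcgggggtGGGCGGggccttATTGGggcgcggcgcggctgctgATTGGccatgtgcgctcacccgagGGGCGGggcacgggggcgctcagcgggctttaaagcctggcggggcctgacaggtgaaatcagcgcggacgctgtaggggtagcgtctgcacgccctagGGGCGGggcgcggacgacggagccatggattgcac
Insig1: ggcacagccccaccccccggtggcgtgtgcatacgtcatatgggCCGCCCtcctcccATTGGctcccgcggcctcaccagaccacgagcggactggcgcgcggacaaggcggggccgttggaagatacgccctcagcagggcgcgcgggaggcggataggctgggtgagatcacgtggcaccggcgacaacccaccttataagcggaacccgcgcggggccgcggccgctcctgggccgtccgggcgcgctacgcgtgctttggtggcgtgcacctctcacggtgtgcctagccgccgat
Msmo1: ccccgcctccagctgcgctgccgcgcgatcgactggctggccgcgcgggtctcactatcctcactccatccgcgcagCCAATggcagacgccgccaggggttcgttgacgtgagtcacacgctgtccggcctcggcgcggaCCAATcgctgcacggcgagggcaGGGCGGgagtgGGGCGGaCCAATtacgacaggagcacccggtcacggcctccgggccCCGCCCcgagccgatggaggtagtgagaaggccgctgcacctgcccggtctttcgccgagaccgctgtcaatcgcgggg

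Among the regulators, Srebf1, Insig1, Srebf2 and Scap rose at 100 nM, and Srebf1, Insig1 and Srebf2 rose at 10 nM. Values are log2 signals of the probe set that stands for the gene, given as lowest, median and highest of 6 arrays for 100 nM and control cultures, and as replicates 1, 2 and 3 for 10 nM cultures. Srebf1, which encodes the SREBP most tied to fatty acid synthesis, had 10.01, 10.21 and 10.50 in 100 nM cultures, against 9.07, 9.43 and 9.76 in controls. Its 10 nM values were 10.51, 10.30 and 10.39. All treated arrays lay above all controls, with a log2 difference of 0.81 ± 0.12 (SE) at 100 nM (limma adjusted p = 0.000867) and 0.97 ± 0.15 at 10 nM (limma adjusted p = 0.00101). Its other probe set rose as well, by 0.47 at 100 nM and 0.73 at 10 nM. Insig1, the retention protein and itself a target of the SREBPs, had 11.23, 11.42 and 11.56 in 100 nM cultures, against 10.50, 10.73 and 11.11 in controls. At 10 nM it had 11.57, 11.31 and 11.51, again with no overlap with the controls. The log2 difference of Insig1 was 0.62 ± 0.10 at 100 nM (limma adjusted p = 0.00191) and 0.68 ± 0.12 at 10 nM (limma adjusted p = 0.00327).

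Srebf2, which encodes the SREBP most tied to sterol synthesis, had 10.34, 10.49 and 10.64 in 100 nM cultures, against 9.97, 10.16 and 10.49 in controls, and 10.61, 10.69 and 10.74 in 10 nM cultures. The 100 nM arrays overlapped the controls and the 10 nM arrays did not. Its difference was 0.31 ± 0.09 at 100 nM (limma adjusted p = 0.0499) and 0.49 ± 0.12 at 10 nM (limma adjusted p = 0.0144). Scap, the escort, had 9.62, 9.81 and 9.87 in 100 nM cultures, against 9.35, 9.54 and 9.75 in controls, and 5 of 6 arrays lay above all controls. In 10 nM cultures it had 9.77, 9.85 and 9.74. It rose by 0.27 ± 0.07 at 100 nM (limma adjusted p = 0.0217), and the same difference of 0.27 at 10 nM had an adjusted p of 0.0522. Insig2, the second retention gene, had 8.26, 8.38 and 8.57 in 100 nM cultures, against 7.64, 7.97 and 8.44 in controls, and 8.55, 8.32 and 8.64 in 10 nM cultures. Both doses overlapped the controls for Insig2, and it passed neither test, with 0.33 ± 0.12 at 100 nM (limma adjusted p = 0.0978) and 0.44 ± 0.15 at 10 nM (limma adjusted p = 0.0747). The call of Srebf2 at 100 nM failed in 13 of 15 fits that omitted 1 array, with an adjusted p of up to 0.109, and that of Scap failed in the 1 without control replicate 4 (0.0512).

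**Figure D3:**
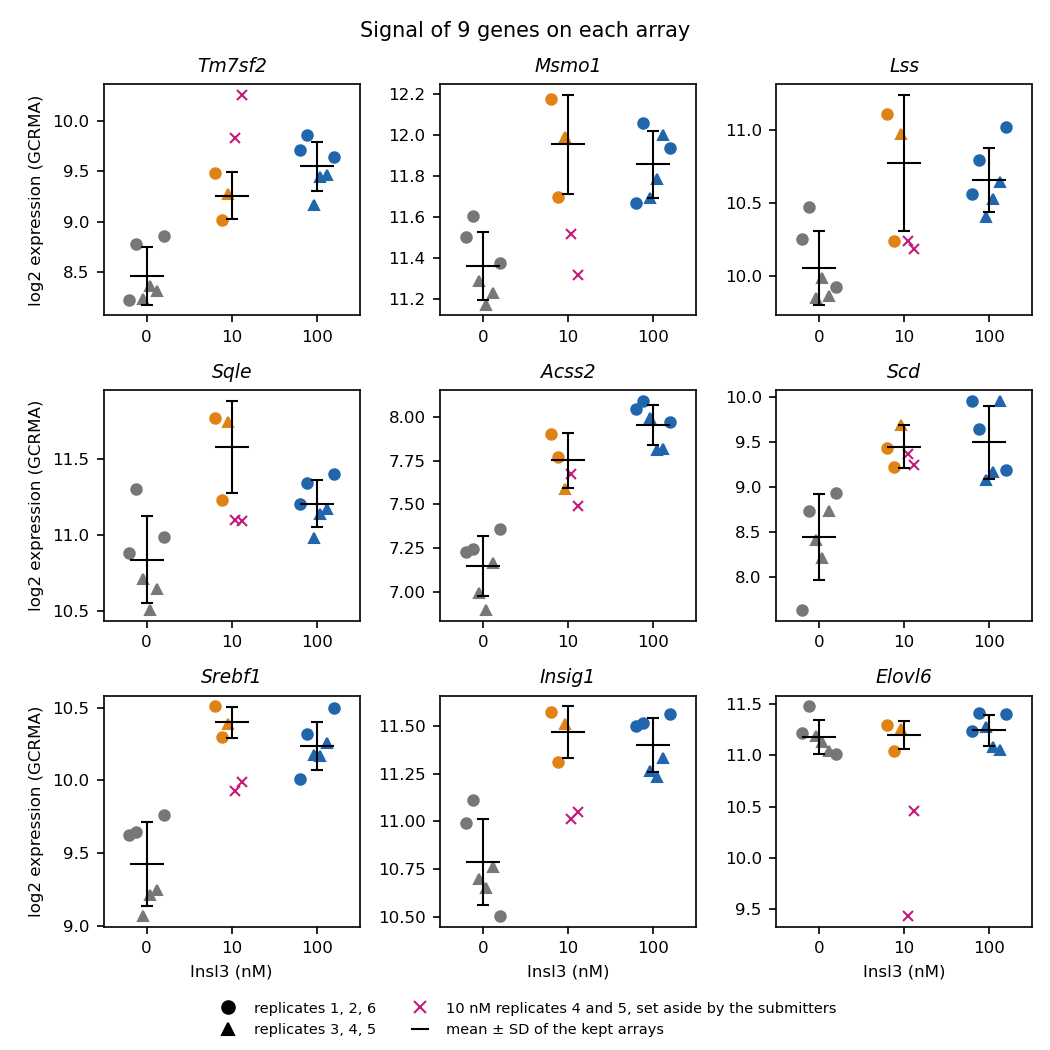
Log2 signal of single arrays (points; crosses are the 10 nM arrays set aside) at 0, 10 and 100 nM Insl3 for 9 genes, with lines for the mean ± SD of the arrays kept and 1 panel per gene with its own y axis. For Srebf1, Insig1, Tm7sf2, Msmo1, Acss2 and Scd every kept array at 10 or 100 nM lies above every control array, while Elovl6 is level across the kept arrays at differences of 0.02 and 0.07.

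In the first steps of sterol synthesis, up to squalene, Idi1 and Fdps rose at 100 nM, and Acat2 and Fdps rose at 10 nM. Acat2, a cytosolic thiolase that joins acetyl-CoA units, had 10.95, 11.23 and 11.50 in 100 nM cultures, against 10.98, 11.10 and 11.43 in controls, while its 10 nM values were 11.86, 11.42 and 11.78. Its 100 nM arrays spanned the control range (0.12 ± 0.10, limma adjusted p = 0.519), whereas it rose by 0.56 ± 0.13 at 10 nM (limma adjusted p = 0.0115). Idi1, the isopentenyl diphosphate isomerase, had 11.72, 11.77 and 12.15 in 100 nM cultures, against 11.20, 11.42 and 11.87 in controls, and 12.07, 11.87 and 11.92 in 10 nM cultures. It rose by 0.39 ± 0.12 at 100 nM (limma adjusted p = 0.0464), and 0.47 ± 0.14 at 10 nM missed the threshold (limma adjusted p = 0.0518). Another Idi1 probe set rose at both doses, by 0.65 at 100 nM and 0.86 at 10 nM. Fdps, which makes farnesyl diphosphate, had 13.06, 13.27 and 13.40 in 100 nM cultures, against 12.70, 12.81 and 13.20 in controls, and 13.57, 13.20 and 13.47 in 10 nM cultures. It rose by 0.35 ± 0.10 at 100 nM (limma adjusted p = 0.0366) and by 0.51 ± 0.12 at 10 nM (limma adjusted p = 0.0149). The kinases Mvk and Pmvk, the decarboxylase Mvd and the squalene synthase Fdft1 were called at neither dose, with differences of 0.39, 0.10, 0.36 and 0.13 at 100 nM and 0.16, 0.23, 0.46 and 0.37 at 10 nM. When 1 array was omitted, the 100 nM calls of Idi1 and Fdps failed in 13 and 9 of 15 fits, with adjusted p of up to 0.0982 and 0.08.

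From squalene onward, Lss, Tm7sf2 and Msmo1 rose at both doses. Tm7sf2, a sterol reductase, had the largest 100 nM difference of the 32 genes. Its signals were 9.16, 9.55 and 9.86 in 100 nM cultures, against 8.23, 8.34 and 8.86 in controls, and 9.48, 9.02 and 9.27 in 10 nM cultures. No treated array overlapped the controls, and the rise was 1.08 ± 0.14 at 100 nM, or 2.12-fold (limma adjusted p = 0.00034), and 0.79 ± 0.17 at 10 nM, or 1.73-fold (limma adjusted p = 0.00961). Msmo1, a methylsterol oxidase, had 11.67, 11.86 and 12.06 in 100 nM cultures, against 11.17, 11.33 and 11.61 in controls, and 12.18, 11.70 and 11.99 in 10 nM cultures. It rose by 0.50 ± 0.10 at 100 nM (limma adjusted p = 0.00763) and by 0.59 ± 0.12 at 10 nM (limma adjusted p = 0.00733). Lss, the cyclase that forms lanosterol, had 10.41, 10.60 and 11.02 in 100 nM cultures, against 9.85, 9.95 and 10.48 in controls, and 11.11, 10.24 and 10.97 in 10 nM cultures. Replicate 2 of the 10 nM cultures lay inside the control range of Lss. It rose by 0.60 ± 0.16 at 100 nM (limma adjusted p = 0.0261) and by 0.72 ± 0.19 at 10 nM (limma adjusted p = 0.0289), and its other tested probe set passed at neither dose. With 1 array omitted, Lss failed the threshold in 5 of 15 fits at each dose, with an adjusted p of up to 0.0583 at 100 nM and 0.163 at 10 nM.

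Another 4 sterol enzymes, Sqle, Hsd17b7, Sc5d and Dhcr7, were called at 10 nM only. Sqle, the epoxidase that acts on squalene, had 11.77, 11.23 and 11.74 in 10 nM cultures, against 10.50, 10.79 and 11.30 in controls, and 10.98, 11.19 and 11.40 in 100 nM cultures. It rose by 0.74 ± 0.16 at 10 nM (limma adjusted p = 0.00961), and the difference was 0.37 ± 0.13 at 100 nM (limma adjusted p = 0.0959). Hsd17b7, a ketosteroid reductase of the pathway, had 10.12, 9.57 and 10.25 in 10 nM cultures, against 9.03, 9.20 and 9.67 in controls, and 9.34, 9.66 and 9.80 in 100 nM cultures. It rose at 10 nM by 0.75 ± 0.16 (limma adjusted p = 0.00932). For Sc5d, a desaturase, the 10 nM values of 9.59, 9.26 and 9.62 stood against 8.65, 8.85 and 9.31 in controls, and its 100 nM values were 8.97, 9.20 and 9.36. Sc5d rose by 0.58 ± 0.13 at 10 nM (limma adjusted p = 0.0117), and its other 2 probe sets rose at both doses, by 0.58 to 0.65 at 100 nM and 0.82 to 0.83 at 10 nM. Dhcr7, the reductase of the last step, had 11.00, 10.27 and 10.93 in 10 nM cultures, against 9.59, 10.05 and 10.44 in controls, and 10.17, 10.39 and 10.83 in 100 nM cultures. Dhcr7 rose at 10 nM by 0.70 ± 0.19 (limma adjusted p = 0.034). In all 4 genes, 10 nM replicate 2 lay within the control range. At 100 nM the differences of Hsd17b7, Sc5d and Dhcr7 were 0.39, 0.30 and 0.37, with adjusted p of 0.0777, 0.0963 and 0.156. Nsdhl, a sterol dehydrogenase, Ebp, the isomerase, and Cyp51, the lanosterol demethylase, passed at neither dose, with 0.24, 0.22 and 0.39 at 100 nM and 0.53, 0.21 and 0.29 at 10 nM. Another probe set of Nsdhl and of Cyp51 passed at 10 nM, with 0.81 and 0.77. Stard4, a carrier that moves cholesterol between membranes, was at 0.26 ± 0.09 at 100 nM (limma adjusted p = 0.0912) and 0.31 ± 0.11 at 10 nM (limma adjusted p = 0.102). Without 10 nM replicate 1 or 3 Sqle, Hsd17b7 and Sc5d no longer passed, with adjusted p of up to 0.0661, 0.0738 and 0.0784.

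Of the fatty acid enzymes, Acss2, Scd, Fads1 and Fads2 rose at 100 nM, and Acly, Acss2, Acaca, Scd and Fads1 rose at 10 nM. Acss2, which makes acetyl-CoA from acetate, had the lowest adjusted p of all 32 genes at 100 nM. It had 7.81, 7.98 and 8.09 in 100 nM cultures, against 6.90, 7.20 and 7.36 in controls, and 7.90, 7.77 and 7.59 in 10 nM cultures. Neither dose overlapped the controls, though the doses overlapped each other. The rise of Acss2 was 0.80 ± 0.09 at 100 nM, or 1.75-fold (limma adjusted p = 6.19e-05), and 0.60 ± 0.11 at 10 nM, or 1.52-fold (limma adjusted p = 0.00246). Acly, which makes acetyl-CoA from citrate, had 13.22, 13.03 and 13.21 in 10 nM cultures, against 12.58, 12.74 and 13.09 in controls, and 12.86, 13.00 and 13.19 in 100 nM cultures. It rose by 0.37 ± 0.11 at 10 nM (limma adjusted p = 0.0369), with 0.24 ± 0.09 at 100 nM (limma adjusted p = 0.089). Acaca, the carboxylase that commits acetyl-CoA to fatty acids, had 10.75, 10.44 and 10.61 in 10 nM cultures, against 9.85, 10.09 and 10.38 in controls, with no overlap. Its 100 nM values, 10.13, 10.34 and 10.43, overlapped the controls. Acaca rose by 0.47 ± 0.11 at 10 nM (limma adjusted p = 0.0122), and its difference was 0.19 ± 0.09 at 100 nM (limma adjusted p = 0.189). Fasn, the fatty acid synthase, passed at neither dose, with 0.17 ± 0.12 at 100 nM (limma adjusted p = 0.393) and 0.47 ± 0.14 at 10 nM (limma adjusted p = 0.0528). Its other probe set passed at 10 nM with 0.76 (limma adjusted p = 0.0384).

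Desaturases, which put double bonds into fatty acids, included the widest change of this group. Scd had 9.08, 9.42 and 9.96 in 100 nM cultures, against 7.63, 8.58 and 8.94 in controls, and 9.44, 9.23 and 9.69 in 10 nM cultures. All treated arrays lay above the controls, which themselves spread widely, and the rise was 1.05 ± 0.23 at 100 nM, or 2.08-fold (limma adjusted p = 0.00943), and 1.01 ± 0.28 at 10 nM, or 2.01-fold (limma adjusted p = 0.0312). Scd2, a near relative, had 0.15 at 100 nM (limma adjusted p = 0.124) and rose by 0.28 at 10 nM (limma adjusted p = 0.0212) on the probe set that stands for it. Another Scd2 probe set had 7.33, 6.62 and 6.92 at 10 nM, against 6.66 to 7.17 in controls. A further Scd2 probe set had 6.21 to 6.25 at 10 nM, within the 6.20 to 6.45 of controls. Cross-hybridisation between Scd and Scd2 was not tested. Fads1 had 11.58, 11.88 and 12.23 in 100 nM cultures, against 11.20, 11.40 and 11.79 in controls, and 12.13, 12.00 and 12.06 in 10 nM cultures. It rose by 0.42 ± 0.12 at 100 nM (limma adjusted p = 0.0411) and by 0.60 ± 0.15 at 10 nM (limma adjusted p = 0.0172). Fads2 had 7.53, 7.98 and 8.29 in 100 nM cultures, against 6.79, 7.39 and 7.74 in controls, and rose by 0.54 ± 0.16 (limma adjusted p = 0.0491). Its 10 nM arrays, 7.95, 7.84 and 8.12, lay above all controls, yet 0.59 ± 0.20 missed the threshold (limma adjusted p = 0.0757). Elovl6, an elongase, had the smallest difference at both doses, with 0.07 ± 0.09 at 100 nM and 0.02 ± 0.11 at 10 nM. Its other probe set was lower at 10 nM by a log2 difference of -0.41 that missed the threshold (limma adjusted p = 0.0613). Me1, the malic enzyme that supplies NADPH, had 0.26 ± 0.18 at 100 nM and 0.49 ± 0.22 at 10 nM on 1 probe set and -0.02 at both doses on the other. The 100 nM calls of Fads1 and Fads2 failed in 11 and 12 of 15 fits with 1 array omitted, with adjusted p of up to 0.0913 and 0.103.

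Across all other tested probe sets of the 32 genes, 16 in number, 4 were called higher at 100 nM and 7 at 10 nM, and none was called lower. At 100 nM they were 1 probe set of Idi1, 2 of Sc5d and 1 of Srebf1. At 10 nM those 4 were joined by 1 each of Cyp51, Nsdhl and Fasn. On the array as a whole 6.51% of tested probe sets were called higher and 4.39% lower at 100 nM, and 4.88% higher and 5.7% lower at 10 nM.

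The doses were then set against each other. None of the 32 genes was called between 100 nM and 10 nM cultures in limma, where 0.778% of all tested genes were called in either direction, and the lowest adjusted p was 0.11, for Acat2. Of the 32 genes, 25 were lower at 100 nM than at 10 nM, with a median log2 difference of -0.12, against -0.03 over all tested genes. Without adjustment, p was under 0.05 for Acat2 (-0.44, 95% interval -0.71 to -0.17), Sqle (-0.37, -0.73 to -0.02), Hsd17b7 (-0.35) and Acaca (-0.28, -0.51 to -0.05). Over the 32 genes the lowest limit of any of these 95% intervals was -0.77 and the highest was 0.69. For genes whose interval held 0, larger and smaller effects at 100 nM both lay within the precision of 3 arrays against 6. Only the intervals of the 4 genes above excluded 0, and these lay below it. Tm7sf2 and Acss2 pointed the other way, with 0.29 (-0.09 to 0.66) and 0.20 (-0.02 to 0.43). Of the 32 genes, 10 were called against control at both doses, 3 at 100 nM only (Idi1, Fads2 and Scap), 7 at 10 nM only and 12 at neither, and the test between doses called none of the 10 genes that passed at 1 dose.

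Single arrays differed in how far the whole set was shifted. The median of the 32 genes, relative to the control mean, was 0.20 to 0.52 in the 6 cultures at 100 nM, 0.65, 0.30 and 0.56 in the 3 at 10 nM, and -0.17 to 0.23 in the 6 controls. Replicate 2 at 10 nM was low in the sterol enzymes, at 0.23 against 0.72 and 0.63 in the other 2, while its regulators, at 0.50, were level with the 0.49 and 0.58 there. Of the 32 genes, 28, 13 and 26 lay above all 6 controls in the 10 nM replicates, where 21.0%, 26.5% and 21.3% of all tested genes did. In the 100 nM replicates 8 to 25 did so, against 17.4% to 27.5% of all tested genes. Controls fell into 2 sets, replicates 1, 2 and 6 with medians of 0.04, 0.23 and 0.21, and replicates 3, 4 and 5 with -0.11, -0.17 and -0.11. The 100 nM cultures divided along the same numbers, with 0.42, 0.52 and 0.47 against 0.20, 0.28 and 0.31. No label explains this division, which was seen in the data. Abca1, a cholesterol exporter picked after its values were seen, showed it most plainly on the probe set that stands for the gene. In 100 nM cultures it had 11.23 to 11.76 in replicates 3, 4 and 5, and 9.03 to 9.26 in replicates 1, 2 and 6. Controls had 11.43 to 11.54 in replicates 3, 4 and 5, and 9.47 to 9.60 in replicates 1, 2 and 6. Another Abca1 probe set divided in the same direction, but others divided the opposite way. Of these others, 1 had 8.62 to 8.85 in control replicates 3, 4 and 5 and 9.38 to 9.67 in 1, 2 and 6. The direction for Abca1 as a gene was therefore not settled. On the first probe set the 10 nM values, 9.14, 9.79 and 9.53, all lay near those of replicates 1, 2 and 6. No label places the 10 nM cultures in either set, while the 6 controls used for 10 nM came from both. Against control replicates 1, 2 and 6 alone, a comparison added after seeing the data, 1 of the 32 genes rose at 10 nM, Srebf1, by 0.72 ± 0.08 (limma adjusted p = 0.0160), where 1.32% of all tested genes rose. The median difference was then 0.36, against 0.50 with all 6 controls, and 31 of the 32 differences were positive. With the division as a term in the fit, 20 of the 32 genes rose at 10 nM, with a median of 0.47. There, 11.6% of all tested probe sets were called. The term followed the replicate numbers, so it placed 10 nM replicate 3 with replicates 3, 4 and 5. In the same fit 14 of the 32 genes rose at 100 nM, where 13% of all tested probe sets were called. Within replicates 3, 4 and 5, 14 rose (6.22% of all tested genes rose), and within replicates 1, 2 and 6 only Acss2 did (0.478% rose), although all 32 differences were positive in both sets, with medians of 0.37 and 0.33.

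**Figure D4:**
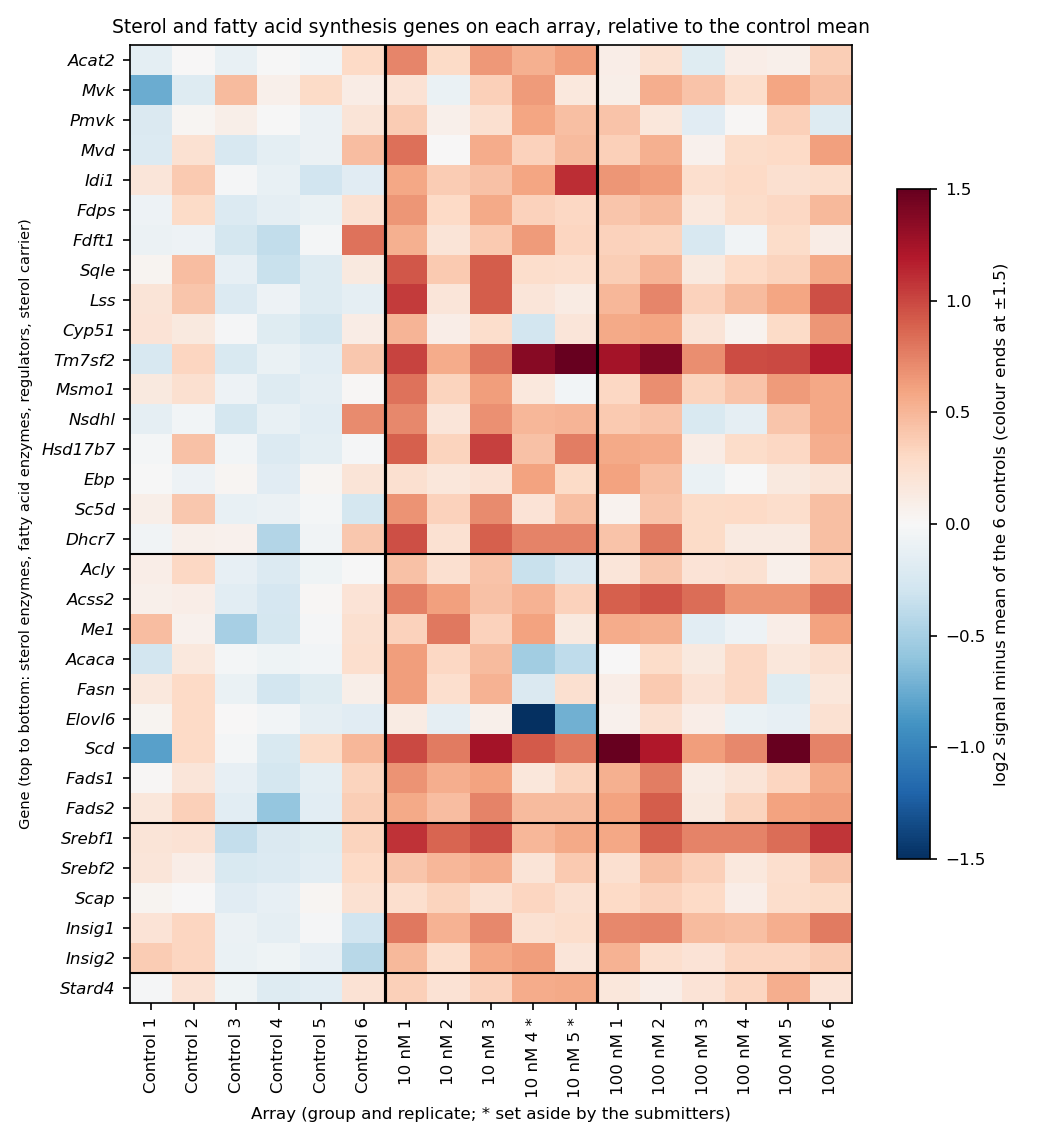
Log2 signal of each gene (rows) minus its control mean on each array (columns; 0, 10 and 100 nM Insl3, left to right), colour scale in log2 units; asterisks mark the arrays set aside. Columns at 10 and 100 nM are mostly above 0, and the median shift per array runs from 0.20 to 0.52 at 100 nM.

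Blood cell markers moved with the 100 nM comparison. Of 7 erythroid markers, 6 fell at 100 nM and none was called at 10 nM, and Slc4a1, an anion exchanger of red cells, fell by 3.15 on the log2 scale (limma adjusted p = 0.00625). Their mean log2 signal per array was 5.02 to 7.53 in 100 nM cultures, against 7.31 to 9.77 in controls, and 7.11 to 8.70 in 10 nM cultures. Of 6 leukocyte markers, 4 fell at 100 nM and none was called at 10 nM, with means of 8.74 to 9.35 in 100 nM cultures, against 9.30 to 9.63 in controls, and 8.99 to 9.67 in 10 nM cultures. With the erythroid mean as a covariate in the fit, the 100 nM count fell to 1 gene, Acss2. The share of all tested probe sets called at 100 nM fell as well, from 10.9% to 2.96%. The median difference of the 32 genes fell to 0.13, and 24 of the 32 differences were positive. At 10 nM, 16 genes were called with the same covariate, 15 of them among the 17, and the median was 0.48. There, 10.3% of all tested probe sets were called. Control replicates 3, 4 and 5 had the highest erythroid means of the controls (9.10, 9.77 and 9.27) and the lowest medians of the 32 genes. Among the 10 nM cultures, replicate 2 had the lowest erythroid mean (7.11) and also the lowest median of the 32 genes, and replicates 1 and 3 had erythroid means of 8.30 and 8.70. The 100 nM and control ranges of the erythroid mean overlapped only between 7.31 and 7.53, and the part of blood cells in the 100 nM result was not tested beyond this fit.

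**Figure D5:**
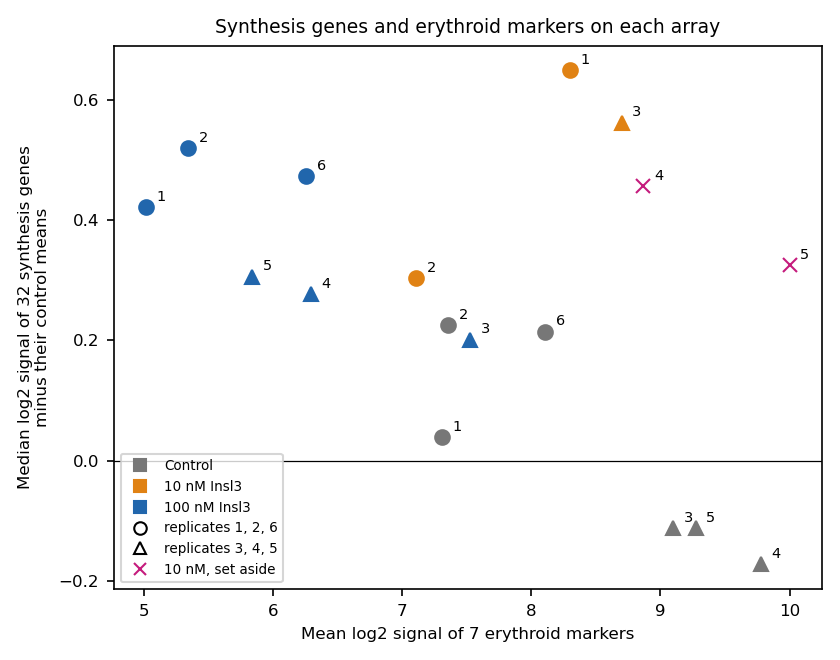
Median log2 shift of the 32 synthesis genes from the control mean (y axis) against the mean log2 signal of 7 erythroid markers (x axis), 1 point per array, by group, with crosses for the arrays set aside. The 100 nM arrays lie at 5.02 to 7.53 on the x axis, the controls at 7.31 to 9.77 and the 10 nM arrays at 7.11 to 8.70.

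Neighbouring parts of lipid metabolism were read from further gene lists. Of all tested genes, 8.15% rose and 3.98% fell at 100 nM, and 5.54% rose and 3.13% fell at 10 nM. Of 9 other genes of sterol sensing, synthesis and uptake, 2 rose at 100 nM and none was called at 10 nM. These were Nfyb, a subunit of NF-Y, which rose by 0.55 (limma adjusted p = 0.00615), and Mbtps1, which rose by 0.29 (limma adjusted p = 0.0353). Mbtps1 is the protease that makes the first cut in SREBPs. Another Nfyb probe set overlapped the controls, with 7.24 to 7.46 in 100 nM cultures and 7.11 to 7.17 in 10 nM cultures, against 7.01 to 7.40 in controls. Of 10 genes of sterol export and storage, Mylip and Scarb1 rose and Abcg1 fell at 100 nM, and Scarb1 rose at 10 nM. Mylip, a ubiquitin ligase that acts on lipoprotein receptors, rose by 0.38 (limma adjusted p = 0.00251), while the exporter gene Abcg1 fell by 0.33 (limma adjusted p = 0.0463). Another Abcg1 probe set, at low signal, had 4.36 to 5.09 in 100 nM cultures and 4.43 in every control. Scarb1, a receptor for high-density lipoprotein, had 7.73, 8.09 and 8.23 in 100 nM cultures, against 7.34, 7.63 and 7.73 in controls. It rose by 0.43 at 100 nM (limma adjusted p = 0.018) and by 0.76 at 10 nM (limma adjusted p = 0.00192). Another Scarb1 probe set had 6.40 to 6.52 in 100 nM cultures, within the 6.40 to 6.56 of controls. Its 10 nM values were 7.05, 6.48 and 7.11.

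Of 15 further genes of fatty acid and lipid synthesis, 3 rose at 100 nM, 5 rose at 10 nM and none fell, with medians of 0.21 and 0.28. Over all tested genes, 8.15% rose at 100 nM and 5.54% at 10 nM. Elovl5, an elongase of polyunsaturated fatty acids, had 12.07, 12.23 and 12.37 in 100 nM cultures, against 11.70, 11.84 and 11.97 in controls. It rose by 0.41 at 100 nM (limma adjusted p = 0.000969) and 0.45 at 10 nM (limma adjusted p = 0.00182). Another Elovl5 probe set, at low signal, had 3.12 to 4.91 in 100 nM and 3.61 to 5.34 in 10 nM cultures, against 2.82 to 5.10 in controls. Slc25a1, the mitochondrial citrate carrier that supplies Acly, rose by 0.58 at 100 nM (limma adjusted p = 0.0204) and by 0.65 at 10 nM (limma adjusted p = 0.0299). Mid1ip1, a partner of acetyl-CoA carboxylase, rose by 0.29 and 0.39, and Acsl4, an acyl-CoA synthetase, rose at 10 nM by 0.32. Of 8 genes of fatty acid oxidation, none rose, and 2 fell at 100 nM and 1 at 10 nM. Over all tested genes, 3.98% fell at 100 nM and 3.13% at 10 nM. Acadl, a long-chain acyl-CoA dehydrogenase, fell by 0.31 at 100 nM (limma adjusted p = 0.00465) and by 0.29 at 10 nM (limma adjusted p = 0.019). Cpt1a, the carrier step into mitochondria, fell by 0.38 at 100 nM (limma adjusted p = 0.0237). Another Cpt1a probe set lay below all controls at both doses. It had 5.55 to 6.13 in 100 nM and 5.61 to 5.69 in 10 nM cultures, against 6.21 to 6.76 in controls. The median of this list was -0.08 at 100 nM and -0.07 at 10 nM. At 100 nM the calls of Mbtps1, Abcg1, Mid1ip1 and Cpt1a failed in 7, 11, 4 and 1 of 15 fits with 1 array omitted, with adjusted p of up to 0.0793, 0.0982, 0.064 and 0.0508. At 10 nM those of Slc25a1, Mid1ip1, Acsl4, Scd2 and Acadl failed in 7, 1, 4, 2 and 2, with adjusted p of up to 0.109, 0.109, 0.121, 0.106 and 0.0841.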

How the data were processed

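Affymetrix rat arrays of 17 gubernaculum cultures were available, and 15 were used, since the submitters had set aside 10 nM replicates 4 and 5 (yields of labelled cRNA of 25.66 and 33.68 µg, against 48.6 to 102.69 µg in the other arrays). The deposited values are log2 signals made with GCRMA, per the submitters' processing notes, and the log base was read from the range of the values, 2.11 to 16.9. Probe sets above the 40th percentile of all values (2.28) in at least 3 arrays were tested, 18938 in all. One linear model over the 15 arrays was fitted with limma 3.58.1 (lmFit, eBayes) in R 4.3.3, with contrasts of 100 nM and 10 nM against control and of 100 nM against 10 nM, with Benjamini-Hochberg adjustment over every probe set tested. The tested probe set with the highest mean stood for its gene, and all members were named; of the other lists, up to the 3 largest rises and falls that passed in a comparison were named, with Scd2 and Acsl4 added after their values were seen. A GCRMA signal depends on the probe, so levels of different genes were not compared. Arrays give no read depth, and their number limits the precision. Alternatives covered the filter, normalization, variance model, choice of probe set, replicate block, blood markers, control sets and single arrays. The genes and lists were chosen with earlier results of these data known. The model was tested on simulated data.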

Additional observations from a re-analysis of the deposited data

Results flagged for a closer look

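In groups of 6 arrays, 5 of the 64 gene and group combinations had 1 array far from the other 5 by Dixon's test, and chance alone gives about 3.2 at 1 in 20. Control replicate 6 was the highest control for Acat2 (11.43, against 10.98 to 11.13 in the other 5), Fdft1 (9.88, against 8.70 to 9.03) and Nsdhl (10.39, against 9.42 to 9.64). Control replicate 2 was the highest control for Hsd17b7 (9.67, against 9.03 to 9.21). For Scap, 100 nM replicate 4 was the lowest treated array (9.62, against 9.79 to 9.87).

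In the 10 nM arrays that the submitters set aside, 16 of the 32 genes in replicate 4 and 17 in replicate 5 lay above all 6 controls, and 4 and 3 lay below all 6. Of all tested genes, 31.7% and 19.7% lay above and 26.5% and 35.2% lay below all controls on these arrays. The mesenchymal marker Col1a1 was at 13.88 and 13.62 there, against 14.69 to 15.05 in controls. Their median shifts from the control mean were 0.46 and 0.32, within the 0.30 to 0.65 of the 3 arrays kept.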

How the results depend on the processing

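Of the 32 genes, 13 were called at 100 nM, where 10.9% of all tested probe sets were called. The count was 7 with no filter on low values (4.49% of all) and 7 with the set-aside arrays included (5.19%). It was 1 with the erythroid mean as a covariate (2.96%) and 1 within replicates 1, 2 and 6 (0.581%). When 1 array was left out it was 6 to 16 (7.66% to 13.9%). Under the other alternatives it was 9 to 14 (8.08% to 14.5%). At 10 nM 17 were called, where 10.6% of all tested probe sets were called. The count was 10 with the replicate number as a block (9.02% of all). It was 1 against control replicates 1, 2 and 6 alone (4.13%), a fit added after seeing the data. When 1 array was left out it was 4 to 22 (5.42% to 13.2%), and 12 to 20 under the other alternatives (4.91% to 13.7%). The count between doses was 0 under every alternative run. Same-numbered cultures were not shown to be pairs: the correlation of their deviations was 0.00676 to 0.199 for 100 nM and control and -0.0433 to 0.131 for 10 nM and control, and with the block 12 genes were called at 100 nM, 11 of them among the 13. Fads2 reversed at 100 nM with the erythroid covariate, to -0.0200 (limma adjusted p = 0.977). The cause of these changes was not tested. The 3 arrays at 10 nM limit the precision of that comparison. An RNA integrity number, a score of RNA quality, was given for 13 of the 15 arrays used, and was 10 in each. None was given for 10 nM replicates 1 and 2.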
